A study of Sus scrofa with 12 samples.

Results

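The genes described here are those of 5 signalling pathways that are carried by secreted or membrane-bound factors, namely TGF-beta, BMP, Wnt, Notch and FGF. They were chosen by symbol, as every gene on the array whose single annotated symbol begins with TGFB, BMP, SMAD, WNT, FZD, SFRP, DKK, NOTCH, JAG, HES, HEY, FGF or FGFR (a number follows the stem for SMAD, WNT, FZD, HES, FGF and FGFR), with BMPR1B left out. This gave 36 of the 6765 genes that had a single symbol on the array. Of the 36, 34 were assigned to the pathways. Among these, FGF12 and FGF13 were counted with FGF by family, although they are intracellular and not secreted. The other two, BMP1 and JAGN1, were taken by their names alone: BMP1 is a protease that matures procollagens, and JAGN1 is a protein of the endoplasmic reticulum. For 16 genes the array held several probe sets, and the probe set with the highest mean over the 12 arrays stood for the gene. A further probe set, annotated to both BABAM1 and BMP7, was not used.

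TGF-beta and BMP ligands bind pairs of serine/threonine kinase receptors, which phosphorylate SMAD proteins. SMAD3 serves TGF-beta and activin, SMAD1 serves BMPs, and SMAD4 is the partner of both. TGF-beta is known for driving matrix production and smooth muscle genes in connective tissue cells, whereas BMPs and the related GDF9 and AMH act between oocyte and granulosa cells. Wnt proteins bind Frizzled receptors, are bound outside the cell by SFRP proteins and are countered at the LRP co-receptor by DKK1 and DKK2. In mouse preadipocytes, Wnt signalling restrains fat cell formation. Notch receptors are cut after contact with a Jagged or Delta ligand on a neighbouring cell, and their freed inner part switches on HES and HEY repressors. FGFs signal through receptor tyrosine kinases, of which FGFR2 in its epithelial splice form is the receptor of FGF7.

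RNA of pig cells was measured on the Affymetrix porcine genome array in 4 groups of 3 arrays, which the labels call biological replicates. DFAT cells were mature adipocytes that had dedifferentiated in ceiling culture (fat-filled cells float and attach to the upper surface of the vessel) and had then grown to near confluence. MA were the mature adipocytes from fat tissue. DFOG cells were granulosa cells that had dedifferentiated in culture and likewise grown to near confluence, and GC were the granulosa cells from ovarian follicles, the cells that surround the oocyte and make estrogen. No agent, transgene or allele is named for any group, and the sources used here do not give strain, age, sex or the number of animals. DFAT and DFOG differed from MA and GC in growth on plastic as well as in cell state, and the design cannot tell these apart. The labels do not say whether replicates came from separate animals, so the p-values rest on a spread that may be partly technical.

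Levels are on the deposited log2 scale, after robust multi-array averaging (RMA). DFOG arrays 2 and 3 were nearly identical, with an SD of their differences over probe sets of 0.0741, against 0.310 to 0.621 in the 11 other pairs of arrays of a group. Their mean was counted as 1 sample, which left 11 samples, with n = 2 for DFOG and n = 3 for the other groups. A fit without DFOG 1 therefore has 1 DFOG sample and no spread within DFOG, and is not like the fits that leave out another sample. Adipocyte markers averaged 6.56 to 7.62 in DFAT samples and 11.28 to 11.43 in MA samples (12 markers measured). Granulosa markers averaged 6.32 to 6.47 in DFOG samples and 9.39 to 9.85 in GC samples (13 markers measured), although CYP19A1 and FOXL2 were no higher in GC than in MA. Macrophage markers averaged 4.43 to 4.67 in DFAT and 5.77 to 6.76 in MA samples, and 7 of the 9 measured passed the test as lower in DFAT. Fibroblast and mural cell markers averaged 10.35 to 10.91 in DFAT against 7.71 to 8.37 in MA samples, and 10.32 to 10.42 in DFOG against 5.90 to 6.33 in GC samples (8 markers measured). Of the 8, 6 were called higher and 1 lower in DFAT, and 7 higher in DFOG. The mural marker RGS5 had a mean of 4.13 in DFAT and 7.20 in MA. COL3A1 was no higher in DFAT (7.54) than in MA (8.05), or in DFOG (6.97) than in GC (7.62). Actin control probe sets at the 3′ end read higher than those at the 5′ end, a sign of RNA length, and this difference was 0.61 ± 0.33 in DFAT (SD, n = 3) and 1.88 ± 0.52 in MA (n = 3), and 0.39 ± 0.33 in DFOG (n = 2) and 1.35 ± 0.55 in GC (n = 3). These marker and RNA differences run alongside both dedifferentiation comparisons. The part of the marker differences in the results below was not tested. In samples of many cells, fewer cells of a type and less RNA per cell cannot be told apart.

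Each comparison was made with limma in a single fit over all groups, with p-values adjusted over all 23999 probe sets, and a gene was called changed at an adjusted p under 0.05. In DFAT against MA, 10 of the 36 genes rose and 2 fell, which is 27.8% and 5.56% of them. Over all named genes 20.7% rose and 20.4% fell in the same comparison. The genes that rose were TGFB1, TGFB2, TGFB3, FZD2, FZD6, DKK3, HES1, HEY2, FGF7 and FGFR2, and those that fell were FZD4 and FGF13. In DFOG against GC, 8 genes rose and 6 fell, 22.2% and 16.7% of the 36, against 17.3% and 13.4% of all named genes. TGFB1, TGFB2, BMP4, SFRP1, DKK3, HES1, FGF13 and FGFR2 rose, whereas TGFBR3, FZD5, JAG1, NOTCH4, FGF12 and BMP1 fell. The median log2 change over the 36 genes was 0.17 in DFAT minus MA and 0.19 in DFOG minus GC, beside -0.02 and 0.03 over all named genes. The calls in either direction came to 41.1% of named genes for DFAT minus MA and 30.6% for DFOG minus GC.

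In both lineages 5 genes rose: TGFB1, TGFB2, DKK3, HES1 and FGFR2. The share of all named genes that rose in both was not counted, so this number has nothing to be set against. FGF13 moved in opposite directions. The difference between the changes of the lineages was itself tested as an interaction, (DFAT minus MA) minus (DFOG minus GC), and 16 genes (44.4%) passed, 9 with a higher and 7 with a lower change in the fat lineage. Among all named genes 29.1% passed, 13.2% higher and 15.9% lower. Centring each array on its poly-A spike-in controls in place of the deposited scaling gave a median change over all probe sets of 0.56 in DFAT minus MA and -0.81 in DFOG minus GC, in place of -0.07 and -0.02. All directions below are therefore relative to the bulk of the RNA measured. Under that centring 15 genes were higher and 1 lower in DFAT, 7 higher and 10 lower in DFOG, and the interaction counted 21 higher and 2 lower. Of all 23999 probe sets, 6884 were then higher and 1340 lower in DFAT, and 1062 higher and 9355 lower in DFOG. The interaction counted 16040 probe sets higher and 721 lower, so these gene counts follow a shift of the whole array. The interactions of BMP4, FGFR2, FZD4, TGFB1 and TGFB2 were not called under it. With the actin 3′ to 5′ difference of each array as a covariate, 10 of the 12 calls in DFAT minus MA, 12 of the 14 in DFOG minus GC and 15 of the 16 interactions were kept.

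**Figure D1:**
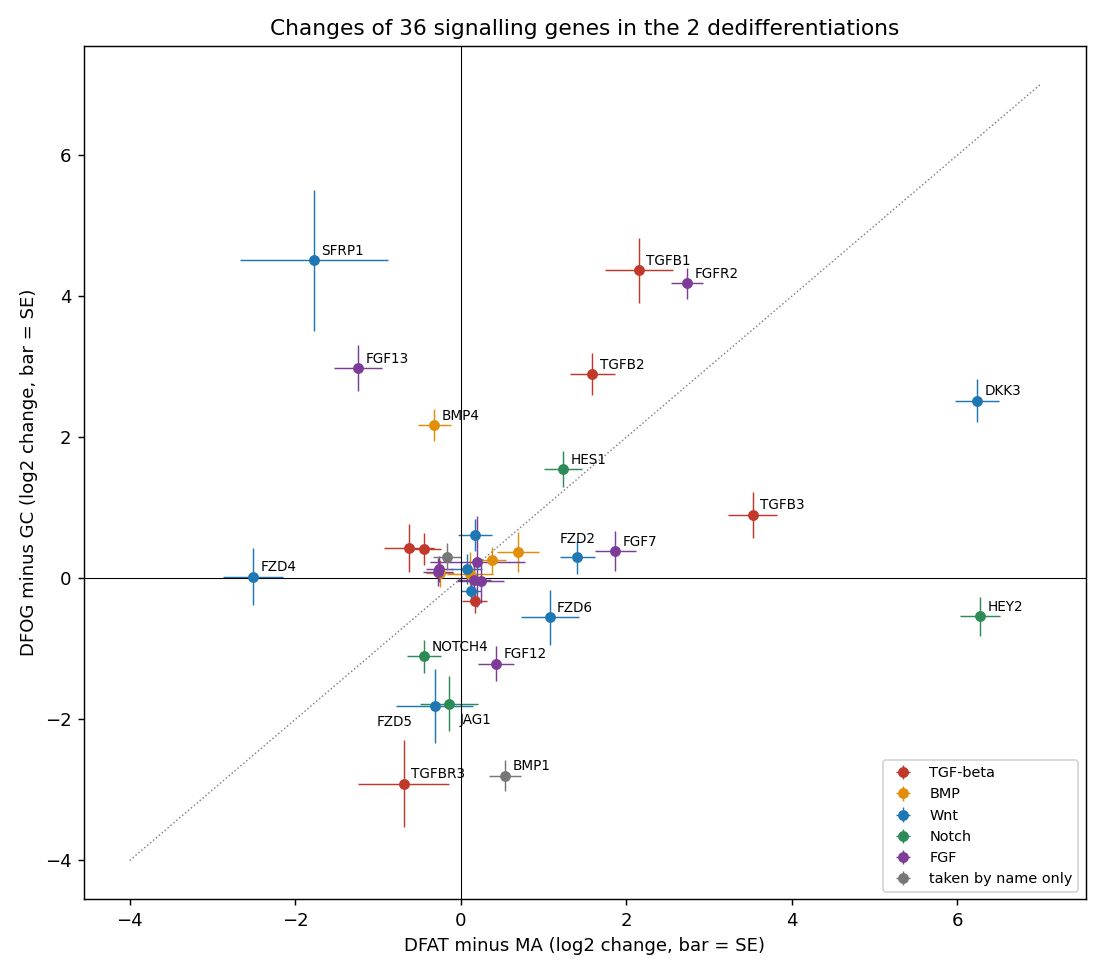
Log2 change in DFAT minus MA (x axis) against log2 change in DFOG minus GC (y axis) for the 36 genes, each point being a gene coloured by pathway, with its SE as bars and a dotted line of equal change. HEY2 and DKK3 lie far to the right with changes of 6.28 and 6.24 in fat cells, SFRP1 and TGFB1 lie at the top with 4.51 and 4.37 in granulosa cells, and the 16 genes called in neither lie near 0 on both axes.

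All 3 TGF-beta ligand genes were higher in cultured fat cells, and TGFB1 and TGFB2 were higher in cultured granulosa cells as well. TGFB1, the most widely made isoform, had levels of 6.92, 6.48 and 7.40 in the DFAT samples, against 4.39, 4.75 and 5.20 in the MA samples. It had 10.45 and 9.20 in the DFOG samples, against 6.22, 4.78 and 5.36 in the GC samples. Every cultured sample lay above every isolated sample of its lineage. TGFB1 rose by 2.15 ± 0.41 (SE, limma adjusted p = 0.00196) in DFAT minus MA. In DFOG minus GC it rose by 4.37 ± 0.46 (SE, limma adjusted p = 4.16e-05), and the interaction was -2.21 ± 0.62 (SE, limma adjusted p = 0.0242). With the actin 3′ to 5′ difference of each array as a covariate, the TGFB1 change in DFAT was 1.16, no longer past the test (limma adjusted p = 0.187). The interaction was lost without any of 6 samples (DFAT 2, DFOG 1, GC 2, GC 3, MA 2 or MA 3), with values between -2.23 and -1.59. A dimmer TGFB1 probe set, with a mean of 4.55 over the 12 arrays, rose by 0.68 in DFAT and 2.80 in DFOG (limma adjusted p = 0.0149 and 2.7e-06). Its interaction was -2.12 (limma adjusted p = 0.000244).

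TGFB2, an isoform that needs the co-receptor TGFBR3 for tight binding to its receptors, had levels of 8.07, 9.22 and 8.43 in DFAT, against 7.12, 7.13 and 6.71 in MA. Its levels were 7.04 and 7.35 in DFOG, against 4.51, 4.31 and 4.09 in GC. Neither pair of groups overlapped. The change was 1.59 ± 0.27 (SE, limma adjusted p = 0.000829) in DFAT minus MA and 2.90 ± 0.30 (SE, limma adjusted p = 3.58e-05) in DFOG minus GC. TGFB2 was read by 4 probe sets, and all 4 passed the test as higher in both comparisons. The interaction was -1.30 ± 0.40 (SE, limma adjusted p = 0.038), but it lost its call without any of 7 samples (DFAT 1, DFAT 3, DFOG 1, GC 2, GC 3, MA 1 or MA 2), where it lay between -1.46 and -1.05. The other TGFB2 probe sets gave interactions of 0.20, -0.40 and 0.12, none called, and under poly-A centring the interaction was 0.12.

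TGFB3, the third isoform, rose in fat cells and gave no call in granulosa cells. Levels of 8.96, 10.21 and 9.25 in DFAT stood against 5.78, 5.86 and 6.18 in MA, without overlap. The change was 3.53 ± 0.29 (SE, limma adjusted p = 4.28e-06). In granulosa cells the levels were 6.03 and 6.53 in DFOG and 5.31, 5.63 and 5.18 in GC, again without overlap, but the change of 0.90 ± 0.33 (SE, limma adjusted p = 0.0696) did not pass the test. That change did pass without DFAT 1 (adjusted p = 0.041) or without DFAT 2 (adjusted p = 0.0147), samples that enter it only through the shared estimate of the spread. The interaction was 2.63 ± 0.44 (SE, limma adjusted p = 0.00134). A second TGFB3 probe set rose in DFAT too, by 1.80 (limma adjusted p = 0.00274). In DFOG that probe set changed by 0.14, not called (limma adjusted p = 0.873), and its interaction was 1.66 (limma adjusted p = 0.0499).

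**Figure D2:**
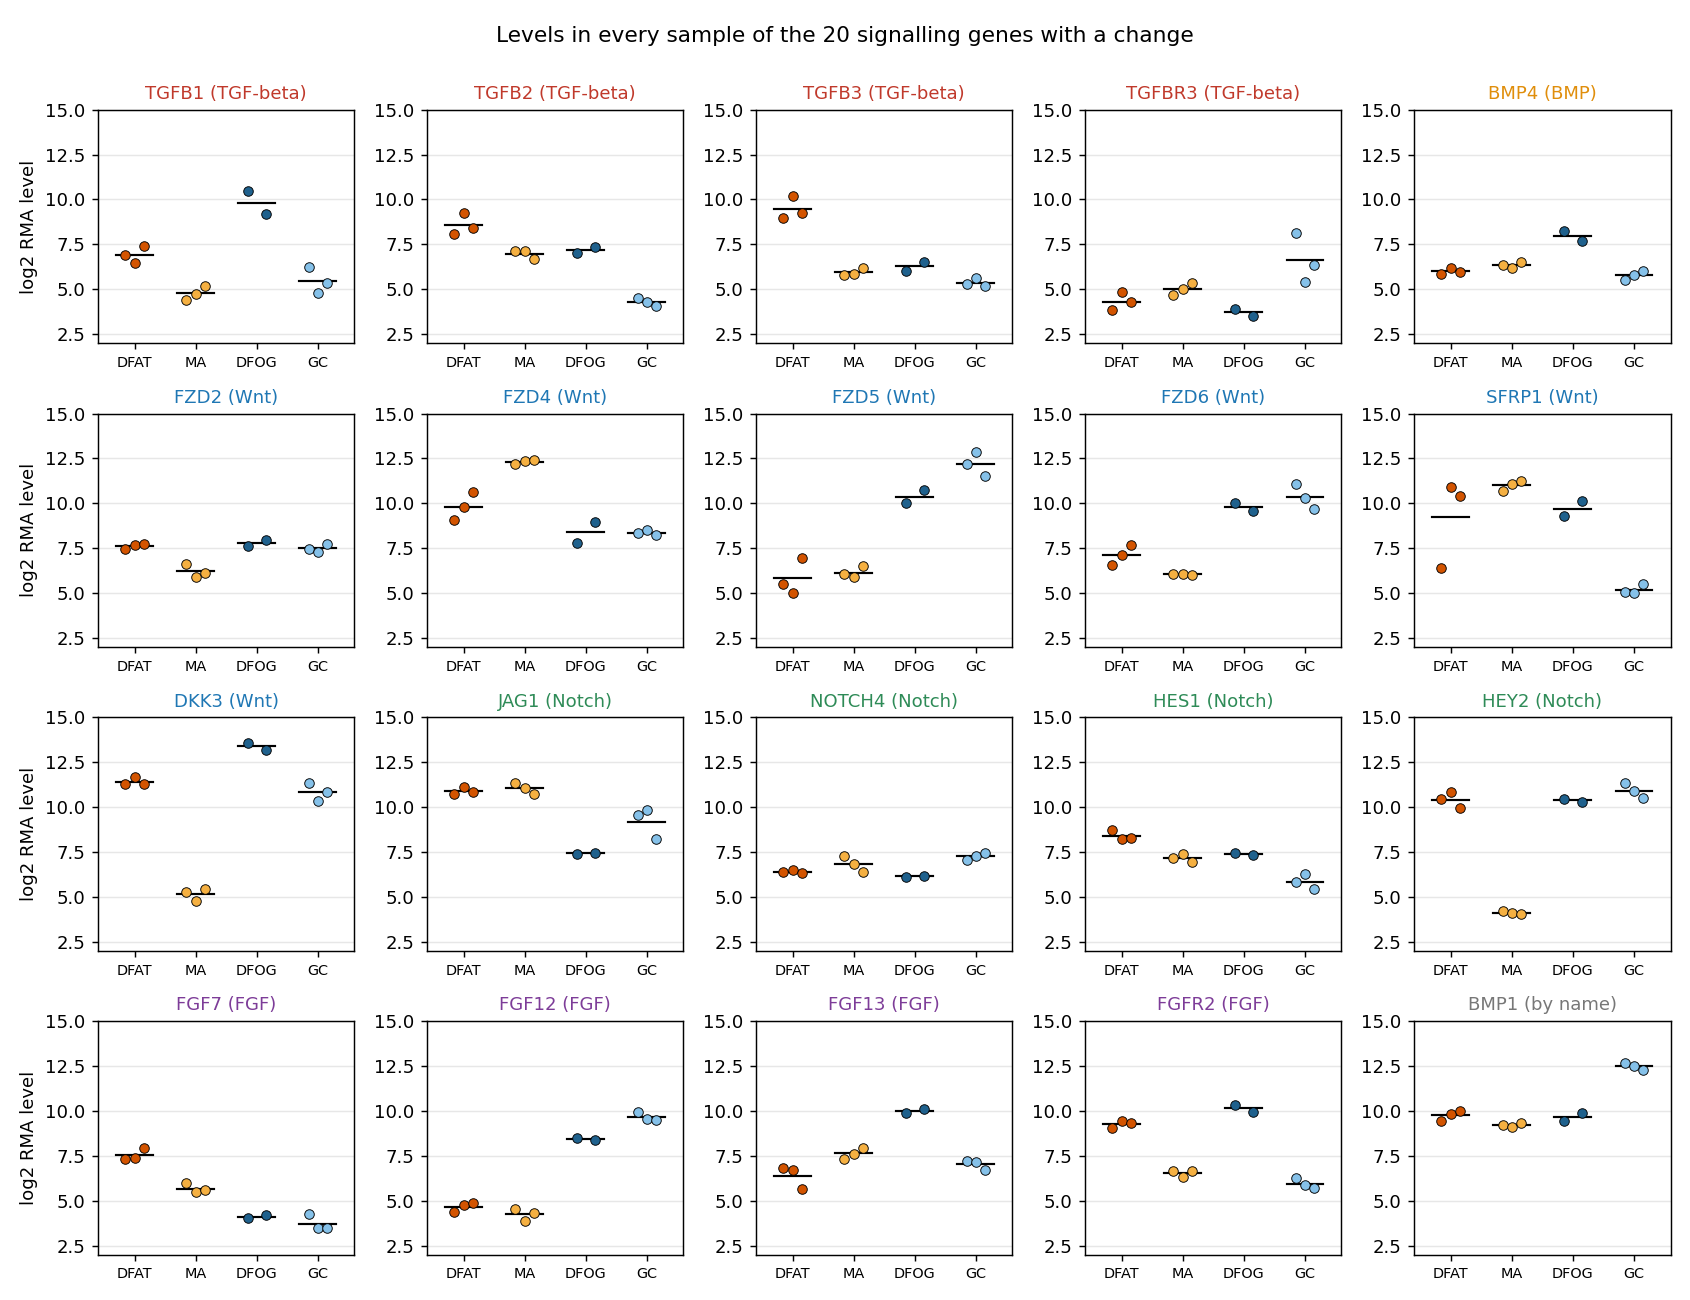
Log2 expression level (y axis) of the genes given sample by sample, by group (x axis: DFAT, MA, DFOG, GC). Each point is a sample, DFOG arrays 2 and 3 being a single point at their mean, and each bar is the group mean. DFAT points for HEY2 and DKK3 sit far above the MA points, and DFAT 1 sits apart from the other DFAT samples for SFRP1.

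Of the TGF-beta receptors, TGFBR3 fell in granulosa cells and TGFBR1 was not called. TGFBR3, or betaglycan, the membrane proteoglycan that presents TGF-beta and also binds inhibin, had levels of 3.91 and 3.53 in DFOG, against 8.15, 5.39 and 6.35 in GC. The groups did not overlap, but the GC samples spread widely, with GC 1 the highest. The change was -2.91 ± 0.62 (SE, limma adjusted p = 0.00509). In DFAT the levels were 3.83, 4.84 and 4.29, against 4.68, 4.99 and 5.35 in MA, which overlap, and the change of -0.69 ± 0.55 (SE, limma adjusted p = 0.398) did not pass the test. The interaction of 2.22 ± 0.83 (SE, limma adjusted p = 0.0799) did not pass either. TGFBR1, the kinase that starts SMAD signalling, was not called in any of the 5 comparisons through its brightest probe set, with changes of -0.45 in DFAT minus MA and 0.42 in DFOG minus GC. Another TGFBR1 probe set fell in DFAT, with a change of -1.36 (limma adjusted p = 0.000243), so that its probe sets disagree. That probe set also had a called interaction of -1.23 (limma adjusted p = 0.0098). It was higher in MA than in GC, by 1.81 (limma adjusted p = 1.95e-05). The remaining TGFBR1 probe set was called in MA minus GC too, at 0.85 (limma adjusted p = 0.0108), and in no other comparison. Without GC 1 the TGFBR1 change in DFOG passed, at 0.63 (limma adjusted p = 0.0415).

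None of the SMAD genes on the array passed the test in either dedifferentiation comparison. SMAD3 changed by -0.62 ± 0.30 (SE, limma adjusted p = 0.151) in DFAT minus MA. SMAD1, the BMP-regulated member, had 0.69 ± 0.26 (SE, limma adjusted p = 0.0631) in DFAT minus MA, and passed there only without DFOG 1 among the settings that leave out a sample (0.69, adjusted p = 0.0264). SMAD4, the shared partner, had -0.32 ± 0.17 (SE, limma adjusted p = 0.208) in DFOG minus GC. Phosphorylation of SMAD proteins, which carries the signal, was not measured here.

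Among the BMP pathway genes, BMP4 was the only member called in a dedifferentiation comparison. BMP4, a ligand that commits mesenchymal stem cells to the fat lineage in mouse, had levels of 8.26 and 7.68 in DFOG, against 5.53, 5.81 and 6.04 in GC. The DFOG samples were all higher. The rise was 2.17 ± 0.22 (SE, limma adjusted p = 3.11e-05). In fat cells the levels were 5.87, 6.20 and 5.98 in DFAT and 6.33, 6.18 and 6.50 in MA, which overlap at their edges, and the change of -0.32 ± 0.20 (SE, limma adjusted p = 0.261) did not pass the test. The interaction was -2.49 ± 0.30 (SE, limma adjusted p = 0.000132). Of the others, BMP7 had group means of 4.10 to 4.68, BMP15, a growth factor of the oocyte, had group means between 5.64 ± 0.29 in DFAT and 5.30 ± 0.09 in GC (mean ± SD, n = 3 each), and the receptor BMPR1A changed by 0.38 in DFAT and 0.26 in DFOG without a call. BMPR1A passed in DFAT without DFAT 3, at 0.52 (limma adjusted p = 0.0465).

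Of the 4 Frizzled receptors on the array, FZD2 and FZD6 rose and FZD4 fell in fat cells, while FZD5 fell in granulosa cells. FZD4, a receptor of Norrin as well as of Wnt proteins, was high in mature adipocytes and fell in culture, with 9.07, 9.78 and 10.60 in DFAT, against 12.22, 12.36 and 12.40 in MA. Every DFAT sample lay below every MA sample, and the change was -2.51 ± 0.36 (SE, limma adjusted p = 0.00027). In granulosa cells the levels were 7.82 and 8.97 in DFOG and 8.35, 8.51 and 8.24 in GC, which overlap, with a change of 0.02 ± 0.41 (SE, limma adjusted p = 0.981). The interaction was -2.53 ± 0.54 (SE, limma adjusted p = 0.0059). The second FZD4 probe set gave -2.54 in DFAT (limma adjusted p = 0.000469).

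FZD2 rose in fat cells to the level that granulosa cells had before and after culture. Its levels were 7.45, 7.67 and 7.75 in DFAT, against 6.64, 5.90 and 6.11 in MA, and 7.63 and 7.95 in DFOG, against 7.44, 7.29 and 7.75 in GC. The fat groups did not overlap, whereas the granulosa groups did. The changes were 1.41 ± 0.21 (SE, limma adjusted p = 0.000373) in DFAT minus MA and 0.30 ± 0.24 (SE, limma adjusted p = 0.443) in DFOG minus GC. The interaction of 1.11 ± 0.32 (SE, limma adjusted p = 0.0271) was lost without any of 6 samples (DFAT 2, DFAT 3, DFOG 1, GC 3, MA 2 or MA 3), with values between 0.95 and 1.08.

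FZD5 was high in granulosa cells in both states, with 10.01 and 10.72 in DFOG, against 12.17, 12.84 and 11.53 in GC. The DFOG samples lay below the GC samples, with a change of -1.81 ± 0.52 (SE, limma adjusted p = 0.0263). The call was lost without GC 2 (-1.48, adjusted p = 0.0887) and with the actin covariate (-1.27, adjusted p = 0.251). Without DFOG 1, which leaves 1 DFOG sample, the change was -1.46. In fat cells it had 5.49, 5.04 and 6.97 in DFAT and 6.06, 5.90 and 6.49 in MA, overlapping, with a change of -0.32 ± 0.47 (SE, limma adjusted p = 0.67) and an interaction of 1.50 ± 0.70 (SE, limma adjusted p = 0.165).

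FZD6, a receptor tied to planar cell polarity, had 6.59, 7.11 and 7.69 in DFAT, against 6.09, 6.06 and 6.01 in MA. The 3 MA samples were close together and all below the DFAT samples, with a rise of 1.07 ± 0.35 (SE, limma adjusted p = 0.0363). The call was lost without any of MA 1, MA 2, MA 3, DFAT 2 or DFAT 3 (values of 0.79 to 1.09), and with the actin covariate (0.67, adjusted p = 0.46), and its second probe set changed by 0.00. In granulosa cells FZD6 had 10.02 and 9.57 in DFOG and 11.10, 10.28 and 9.66 in GC, which overlap, with a change of -0.55 ± 0.39 (SE, limma adjusted p = 0.38). The interaction was 1.63 ± 0.52 (SE, limma adjusted p = 0.0454), and was lost without any of 8 samples (DFAT 2, DFAT 3, DFOG 1, GC 1, GC 2, MA 1, MA 2 or MA 3), with values between 1.25 and 1.85. The second FZD6 probe set gave an interaction of 0.61, not called.

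Of the secreted Wnt modulators, DKK3 rose in both lineages. It is a divergent member of the Dickkopf family that does not block Wnt at LRP as DKK1 does. DKK3 had 11.27, 11.66 and 11.27 in DFAT, against 5.27, 4.77 and 5.43 in MA. Its levels were 13.60 and 13.16 in DFOG, against 11.38, 10.35 and 10.87 in GC. The groups of each lineage were fully apart, and the GC samples stood close to the DFAT samples. The rise was 6.24 ± 0.27 (SE, limma adjusted p = 3.53e-08) in DFAT minus MA and 2.52 ± 0.30 (SE, limma adjusted p = 0.000107) in DFOG minus GC, with an interaction of 3.72 ± 0.41 (SE, limma adjusted p = 7.25e-05).

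SFRP1, a secreted Frizzled-like protein that binds Wnt proteins, was high in mature adipocytes and nearly all cultured samples. In granulosa cells it had 9.28 and 10.15 in DFOG, against 5.07, 5.02 and 5.52 in GC, and rose by 4.51 ± 1.0 (SE, limma adjusted p = 0.00656). In fat cells it had 6.40, 10.90 and 10.40 in DFAT, against 10.71, 11.06 and 11.26 in MA, which overlap. DFAT 1 alone was low, and the change of -1.78 ± 0.89 (SE, limma adjusted p = 0.165) did not pass the test. Without DFAT 1 it was -0.36 (adjusted p = 0.408), and without DFAT 2 it was -2.61 and passed (limma adjusted p = 0.0483). The interaction was -6.28 ± 1.34 (SE, limma adjusted p = 0.00576). A second probe set gave -1.84 in DFAT without a call and 6.51 in DFOG (limma adjusted p = 0.000131).

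The LRP antagonists DKK1 and DKK2 gave no call through the probe sets that stood for them. DKK1 was at 2.82 ± 0.05 in DFAT and 2.70 ± 0.02 in MA (mean ± SD, n = 3 each), below the 25th percentile of all probe sets. DKK2 changed by 0.17 in DFAT and 0.61 in DFOG. Without GC 1 the DFOG change was 0.80 and passed (limma adjusted p = 0.0203). A dimmer DKK2 probe set rose in DFAT by 2.29 (limma adjusted p = 0.00795). WNT10B, which keeps mouse preadipocytes from becoming fat cells, was the single Wnt ligand on the array under the rule, and its group means spanned 0.14, from 4.26 to 4.40.

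In the Notch pathway both target genes rose in fat cells, while the ligand and the receptor fell in granulosa cells. HEY2, a transcriptional repressor of the Hairy family, had 10.46, 10.85 and 9.94 in DFAT, against 4.20, 4.13 and 4.08 in MA. It had 10.47 and 10.32 in DFOG and 11.33, 10.92 and 10.54 in GC. The MA samples alone were low, and each DFOG sample was below each GC sample. The change was 6.28 ± 0.25 (SE, limma adjusted p = 1.84e-08) in DFAT minus MA and -0.54 ± 0.27 (SE, limma adjusted p = 0.199) in DFOG minus GC, which did not pass the test. The interaction of 6.81 ± 0.37 (SE, limma adjusted p = 6.31e-07) was the highest of the 36 genes. The other HEY2 probe sets also rose in DFAT, by 4.85 and 0.67 (limma adjusted p = 1.44e-06 and 0.0226).

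HES1, the repressor most often used to read Notch activity, though other signals drive it as well, had 8.75, 8.23 and 8.29 in DFAT, against 7.18, 7.42 and 6.96 in MA. It had 7.48 and 7.36 in DFOG, against 5.86, 6.27 and 5.47 in GC. Neither lineage showed overlap. The rises were 1.24 ± 0.23 (SE, limma adjusted p = 0.00143) and 1.55 ± 0.25 (SE, limma adjusted p = 0.000961) in DFAT minus MA and DFOG minus GC. The interaction was -0.32 ± 0.34 (SE, limma adjusted p = 0.586), so that a difference between the lineages was not detected. Under poly-A centring the DFOG rise was 0.76 and was not called (limma adjusted p = 0.0846).

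JAG1, a membrane-bound Notch ligand, stayed high in the fat lineage, with 10.76, 11.11 and 10.86 in DFAT and 11.36, 11.09 and 10.72 in MA, and a change of -0.14 ± 0.35 (SE, limma adjusted p = 0.805). In granulosa cells it had 7.40 and 7.45 in DFOG, against 9.55, 9.84 and 8.22 in GC. The DFOG samples were all lower, and the change was -1.78 ± 0.39 (SE, limma adjusted p = 0.00621). The 2 dimmer JAG1 probe sets did not show it (-0.27 and -0.05, neither called), and the mean over the probe sets changed by -0.70 (limma adjusted p = 0.0803). The interaction of 1.63 ± 0.52 (SE, limma adjusted p = 0.0442) was lost without any of 8 samples (DFAT 1, DFAT 2, DFAT 3, DFOG 1, GC 1, GC 2, MA 2 or MA 3), with values between 1.32 and 1.71. The dimmer JAG1 probe sets gave interactions of 0.55 and -0.35, neither called.

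NOTCH4, a receptor found mainly in endothelium, fell in DFOG, with 6.12 and 6.20 in DFOG, against 7.07, 7.29 and 7.44 in GC. The groups did not overlap and the change was -1.11 ± 0.23 (SE, limma adjusted p = 0.00467). It was -0.74 with the actin covariate and was not called (limma adjusted p = 0.0834). Endothelial markers averaged 5.11 to 5.18 in DFOG samples and 5.06 to 5.26 in GC samples (11 markers measured), and 2 were called higher and 1 lower in DFOG. Among them TIE1 was at 5.82 ± 0.23 in DFOG (mean ± SD, n = 2) and 8.30 ± 0.20 in GC (n = 3), and PECAM1 was at 6.85 ± 0.46 in DFOG and 5.08 ± 0.40 in GC. In fat cells NOTCH4 had 6.40, 6.48 and 6.33 in DFAT and 7.29, 6.83 and 6.41 in MA, with a change of -0.44 ± 0.21 (SE, limma adjusted p = 0.136), which passed without MA 3 (-0.66, adjusted p = 0.0259). Endothelial markers averaged 5.01 to 5.18 in DFAT samples and 5.50 to 5.97 in MA samples, and 4 of the 11 were called lower in DFAT.

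Among FGF genes, the ligand FGF7 and the receptor FGFR2 both rose in fat cells. FGF7, a stromal factor that acts on epithelia, had 7.34, 7.39 and 7.94 in DFAT, against 5.99, 5.47 and 5.60 in MA. The groups did not overlap, and the rise was 1.87 ± 0.25 (SE, limma adjusted p = 0.000151). In granulosa cells it stayed low, with 4.03 and 4.23 in DFOG and 4.25, 3.48 and 3.50 in GC, and a change of 0.39 ± 0.28 (SE, limma adjusted p = 0.386). The interaction was 1.48 ± 0.37 (SE, limma adjusted p = 0.0142). Without DFOG 1, which leaves 1 DFOG sample, it was 1.37. A dimmer FGF7 probe set changed by 0.35 in DFAT, with an interaction of 0.24, and neither was called.

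FGFR2 had 9.06, 9.47 and 9.34 in DFAT, against 6.69, 6.33 and 6.65 in MA. It had 10.33 and 9.96 in DFOG, against 6.25, 5.91 and 5.73 in GC. All cultured samples were above 9 and all isolated samples below 7. FGFR2 rose by 2.73 ± 0.19 (SE, limma adjusted p = 1.34e-06) in DFAT minus MA and by 4.18 ± 0.22 (SE, limma adjusted p = 2.07e-07) in DFOG minus GC, and the interaction was -1.45 ± 0.29 (SE, limma adjusted p = 0.00404). Its single probe set does not separate the splice forms here. FGFR1, the main receptor of connective tissue cells, changed by 0.24 in DFAT and -0.04 in DFOG without a call.

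FGF13 and FGF12 are intracellular relatives of the FGFs that bind sodium channels and are not secreted. FGF13 went opposite ways in the lineages. It had 6.81, 6.71 and 5.68 in DFAT, against 7.36, 7.62 and 7.96 in MA, and 9.92 and 10.13 in DFOG, against 7.24, 7.19 and 6.70 in GC. The groups of each lineage did not overlap. The change was -1.24 ± 0.29 (SE, limma adjusted p = 0.00692) in DFAT minus MA and 2.98 ± 0.33 (SE, limma adjusted p = 5.47e-05) in DFOG minus GC, with an interaction of -4.23 ± 0.44 (SE, limma adjusted p = 5.25e-05). Under poly-A centring the DFAT change was -0.61 and was not called (limma adjusted p = 0.19).

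FGF12 had 8.53 and 8.38 in DFOG, against 9.93, 9.57 and 9.50 in GC. It fell without overlap, with a change of -1.21 ± 0.24 (SE, limma adjusted p = 0.00377), and its second probe set fell too (-2.32, limma adjusted p = 0.0172). In fat cells it was low, with 4.36, 4.80 and 4.91 in DFAT and 4.57, 3.86 and 4.35 in MA, a change of 0.43 ± 0.22 (SE, limma adjusted p = 0.168) and an interaction of 1.64 ± 0.33 (SE, limma adjusted p = 0.00394). The second FGF12 probe set gave an interaction of 2.10, not called (limma adjusted p = 0.095). FGF2, the basic FGF that is widely used to expand stromal cells, had 6.01, 8.84 and 6.28 in DFAT and 6.51, 7.24 and 6.77 in MA. DFAT 2 stood above all MA samples while the other DFAT samples stood below them. The change of 0.20 ± 0.58 (SE, limma adjusted p = 0.839) did not pass the test, and without DFAT 2 it was -0.70 and passed as lower (limma adjusted p = 0.0378).

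BMP1, the procollagen protease, had 9.46 and 9.91 in DFOG, against 12.66, 12.52 and 12.26 in GC. The groups were far apart, with a change of -2.80 ± 0.22 (SE, limma adjusted p = 4.11e-06). In fat cells it had 9.44, 9.83 and 10.02 in DFAT and 9.21, 9.13 and 9.34 in MA, without overlap, and a change of 0.54 ± 0.19 (SE, limma adjusted p = 0.0564) that passed only without DFAT 1 (0.70, adjusted p = 0.0187) among the settings that leave out a sample. The interaction was 3.33 ± 0.29 (SE, limma adjusted p = 1.47e-05). Its second probe set disagreed, with a called rise of 1.73 in DFAT (limma adjusted p = 1.64e-05) and -0.43 without a call in DFOG. JAGN1 changed by -0.16 in DFAT and 0.31 in DFOG and was not called.

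**Figure D3:**
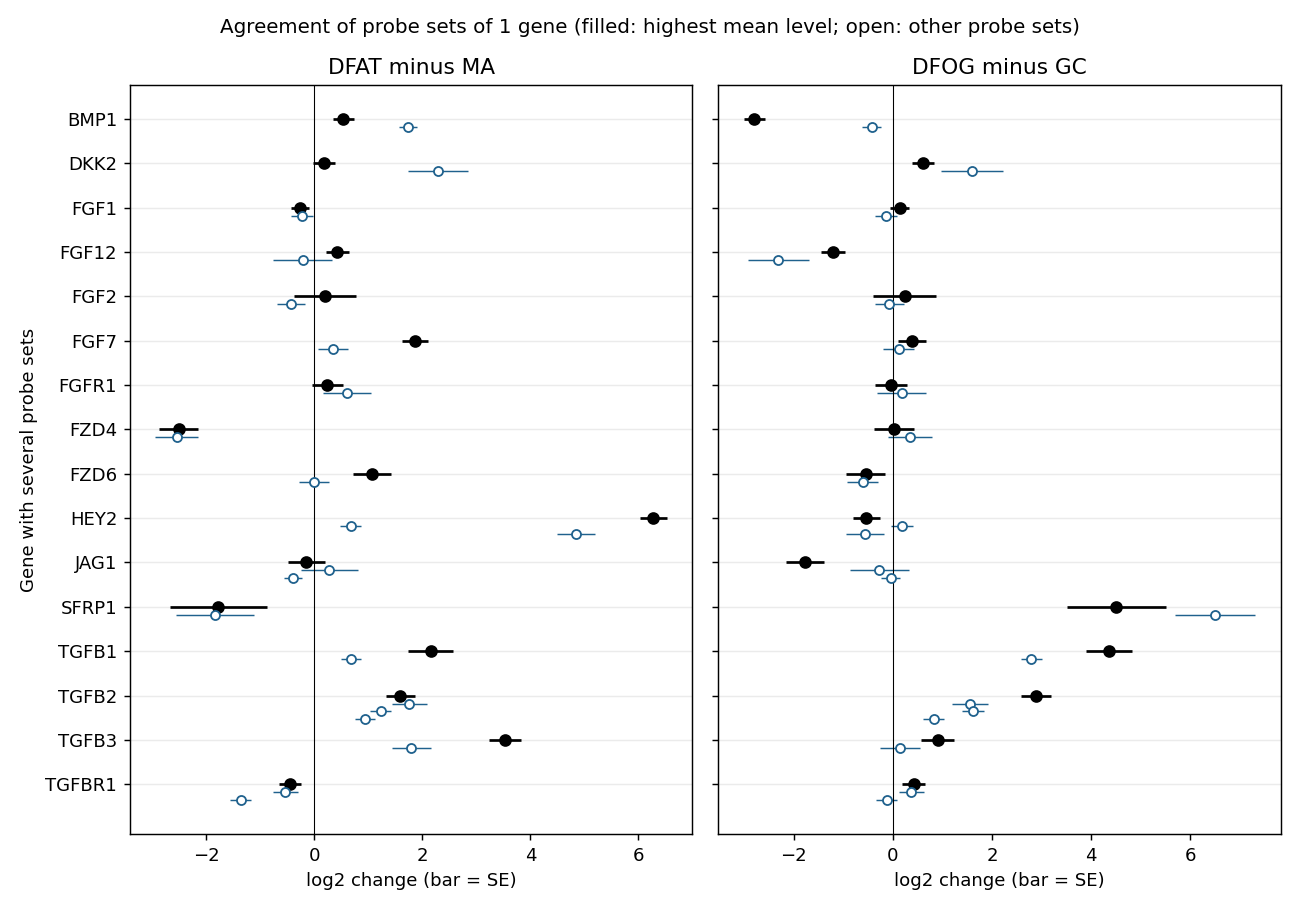
Log2 change of every probe set of the 16 genes that have several, in DFAT minus MA (left) and DFOG minus GC (right). Filled points are the probe sets that stand for the genes, open points the others, and bars the SE. All 4 TGFB2 probe sets lie above 0 on both sides. Those of several genes lie apart, among them BMP1, DKK2, FGF7, FZD6, HEY2, JAG1 and TGFBR1.

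The 16 genes called in neither dedifferentiation comparison were BMP7, BMP15, BMPR1A, SMAD1, SMAD3, SMAD4, TGFBR1, WNT10B, DKK1, DKK2, FGF1, FGF2, FGF9, FGF18, FGFR1 and JAGN1. Their log2 changes ran from -0.62 (SMAD3) to 0.69 (SMAD1) in DFAT minus MA and from -0.32 (SMAD4) to 0.61 (DKK2) in DFOG minus GC. FGF2 had the widest span of group means among them, 3.02, followed by SMAD1 with 1.13 and FGFR1 with 1.04. In all, 30 of the 36 genes had a mean above 4.61, the 25th percentile of all probe sets. A change of a gene near the floor is understated on this scale.

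The cultured cells differed from each other in fewer of these genes than the isolated cells did. In DFAT against DFOG, 14 of the 36 genes (38.9%) passed the test, 6 higher and 8 lower, beside 10.4% of all named genes (4.86% higher and 5.5% lower). In MA against GC, 22 genes (61.1%) passed, 12 higher and 10 lower, beside 49.4% of all named genes (26.8% higher and 22.6% lower). The median difference was 0.07 in DFAT minus DFOG and 0.30 in MA minus GC, against 0.01 and 0.09 over all named genes. DFOG enters the first comparison with n = 2. Macrophage markers averaged 5.77 to 6.76 in MA samples and 4.19 to 4.44 in GC samples, all 9 were called higher in MA, and their part in these differences was not tested. Under poly-A centring the isolated cells had 4 higher and 25 lower genes, and the median over all probe sets was -1.27 in place of 0.07. Of all 23999 probe sets, 1146 were higher and 19065 lower in MA under that centring. BMP4, BMP7, FGF1, FGF18, FGFR2 and HES1, higher in MA than in GC on the deposited scale, changed sign under it.

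Of the 22 genes that differed between the isolated cells, 9 differed in the same direction after culture. The matching share over all named genes was not counted, so whether 9 of 22 is many or few cannot be said. FGF2, FGF7, HES1, JAG1 and TGFB2 were higher in the fat lineage in both states. JAG1 differed by 3.49 ± 0.39 (SE, limma adjusted p = 0.00017) in DFAT minus DFOG and 1.85 in MA minus GC, and FGF7 by 3.42 ± 0.28 (SE, limma adjusted p = 1.62e-05) and 1.95. DKK3, FGF12, FZD5 and FZD6 were lower in the fat lineage in both states. FZD5 differed by -4.53 ± 0.52 (SE, limma adjusted p = 0.000213) in DFAT minus DFOG and -6.03 in MA minus GC, and FGF12 by -3.77 ± 0.24 (SE, limma adjusted p = 3.57e-06) and -5.41. The second FGF12 probe set differed by -0.23 in DFAT minus DFOG, not called (limma adjusted p = 0.95). It was called in MA minus GC, at -2.33 (limma adjusted p = 0.00537). The second probe sets of FGF2 (0.59), FGF7 (1.11) and FZD6 (-1.02) were not called in DFAT minus DFOG either (limma adjusted p = 0.351, 0.0565 and 0.078). In MA minus GC they were called, at 0.96, 0.87 and -1.64 (limma adjusted p = 0.0132, 0.0281 and 0.000647). A dimmer JAG1 probe set was called higher in both states and another in neither. The other TGFB2 probe sets were called higher in both. Differences in FGF2, HES1 and TGFB2 between the cultured cells were lost without DFOG 1, at 2.68, 1.06 and 1.23, and that of HES1 also without DFAT 1, at 0.84.

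BMP4 and FGFR2 passed in both states with opposite signs. BMP4 differed by -1.95 ± 0.22 (SE, limma adjusted p = 0.000187) in DFAT minus DFOG and 0.54 ± 0.20 (SE, limma adjusted p = 0.0482) in MA minus GC. FGFR2 differed by -0.86 ± 0.22 (SE, limma adjusted p = 0.0339) in DFAT minus DFOG and 0.59 ± 0.19 (SE, limma adjusted p = 0.0301) in MA minus GC. The cultured-cell call of FGFR2 was lost without DFAT 1, DFAT 3, DFOG 1, GC 2 or MA 3 (values of -0.88 to -0.67). The isolated-cell call of FGFR2 was lost without GC 2, GC 3, MA 1 or MA 3 (values of 0.48 to 0.57), and that of BMP4 without any of 7 samples (DFAT 2, DFAT 3, GC 1, GC 2, MA 1, MA 2 or MA 3, values of 0.41 to 0.62).

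For the other 11 of the 22 genes no difference was called between DFAT and DFOG through the probe sets that stood for them. HEY2 differed by 0.02 ± 0.27 (SE, limma adjusted p = 0.994) in DFAT minus DFOG and -6.79 in MA minus GC. In the same order SFRP1 differed by -0.48 ± 1.0 (SE, limma adjusted p = 0.926) and 5.81, BMP1 by 0.08 ± 0.22 (SE, limma adjusted p = 0.953) and -3.26, and FZD4 by 1.42 ± 0.41 (SE, limma adjusted p = 0.0577) and 3.96. The second BMP1 probe set disagreed. It was called lower in DFAT than in DFOG, at -1.26 (limma adjusted p = 0.00159), and differed by -3.43 in MA minus GC. A difference that is not called does not show that the cultured cells had equal levels. BMP7, FGF1, FGF18, FZD2, SMAD1, SMAD4 and TGFBR3 made up the rest. Of these, BMP7, FGF1 and FGF18 were near the floor, with means over all arrays of 4.33, 3.97 and 4.08. These lie below 4.61, the limit of the filter on dim probe sets. That filter leaves them out, and it kept 19 of the 22 calls in MA minus GC. The second FGF1 probe set differed by -0.02 in MA minus GC and was not called (limma adjusted p = 0.94). The TGFBR3 difference in MA minus GC was -1.62, and -0.86 without GC 1, no longer called. It was lost as well without GC 3, MA 1, MA 2 or MA 3 (values of -1.79 to -1.46), that of BMP7 without GC 1 or MA 3 (0.49 in each), that of FGF1 without DFOG 1, GC 1, GC 2, MA 1 or MA 2 (0.39 to 0.48) and that of SMAD1 without GC 2, GC 3, MA 1 or MA 2 (-0.76 to -0.59). A further 3 genes were called between the cultured cells and not between the isolated cells: TGFB3 at 3.19 ± 0.33 (SE, limma adjusted p = 9.19e-05), FGF13 at -3.62 ± 0.33 (SE, limma adjusted p = 3.43e-05) and TGFB1 at -2.89 ± 0.46 (SE, limma adjusted p = 0.00218).

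**Figure D4:**
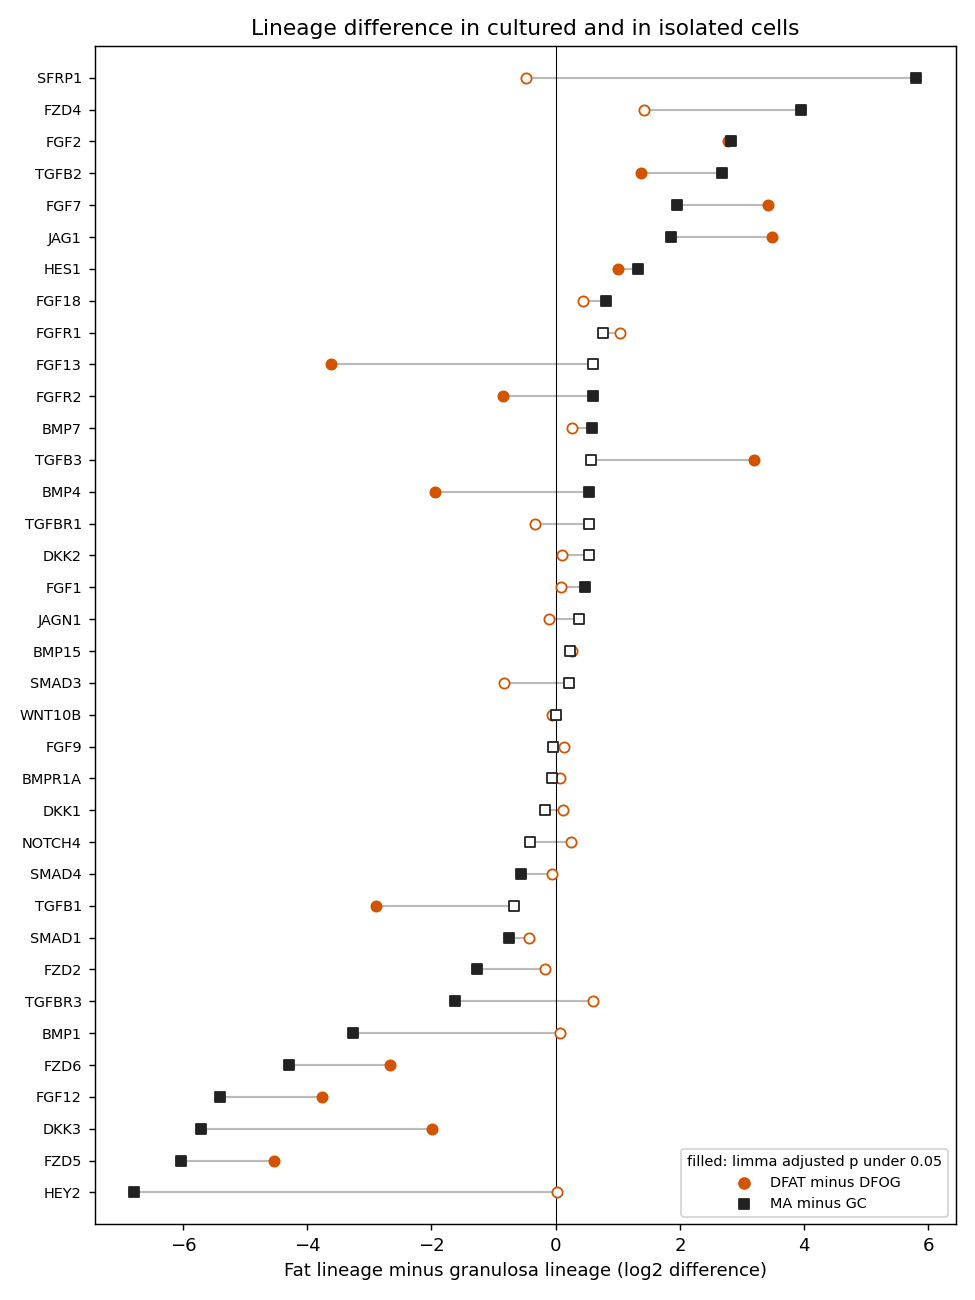
Log2 difference between the cultured cells (DFAT minus DFOG, circles) and between the isolated cells (MA minus GC, squares) for the 36 genes, filled where the adjusted p was under 0.05, with a line joining the values of a gene. HEY2 is at 0.02 in the cultured cells and -6.79 in the isolated cells, whereas FZD5 and FGF12 are below -3 in both. The second FGF12 probe set, not drawn, is at -0.23 in the cultured cells.

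Other genes of the pathways, which the symbol rule does not take, were counted from lists of receptors, transducers, inhibitors and targets. Of 209 listed genes, 70 were measured under their symbols. In DFAT minus MA, 25 of the 70 rose and 10 fell with a median of 0.29, and in DFOG minus GC 22 rose and 14 fell with a median of 0.19. The shares over all named genes are those given above, 20.7% and 20.4% in DFAT and 17.3% and 13.4% in DFOG. MYC is on the Wnt and the Notch list. Part of the genes are also markers of a cell type checked above. Among them are INHA, INHBA, INHBB, FST, AMH and AMHR2 of granulosa cells, GDF9 of the oocyte and DCN of fibroblasts. Of the 13 granulosa markers, 9 were called lower and 0 higher in DFOG than in GC. Mean levels in DFOG and GC were 4.09 and 7.61 for INHBB, 6.47 and 8.60 for AMHR2, and 5.73 and 7.53 for GDF9. The part of such markers in the counts, the falls in DFOG included, was not tested.

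Of 17 measured genes of the TGF-beta and activin list, 7 rose and 1 fell in DFAT (median change 0.61), and 7 rose and 3 fell in DFOG (median change 0.22). TAGLN, a smooth muscle actin-binding protein that TGF-beta induces, was at 13.93 ± 0.15 in DFAT (mean ± SD, n = 3) and 10.29 ± 0.08 in MA (n = 3), a change of 3.64 ± 0.19 (SE, limma adjusted p = 1.18e-07). It was at 13.89 ± 0.07 in DFOG (n = 2) and 6.18 ± 0.37 in GC (n = 3), a change of 7.71 ± 0.21 (SE, limma adjusted p = 3.17e-09). The co-receptor ENG rose by 1.99 in DFAT and the SMAD-binding inhibitor PMEPA1 changed by -1.18 there. In DFOG the matrix proteoglycan DCN, which binds TGF-beta, rose by 7.61, while the inhibin subunit INHA and the activin-binding FST had called changes of -7.20 and -5.19.

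Of 11 measured BMP genes, 4 rose and 1 fell in DFAT (median change 0.55), and 3 rose and 4 fell in DFOG (median change 0.14). The direct BMP targets ID3 and ID1 rose in DFAT by 2.19 ± 0.26 (SE, limma adjusted p = 6.19e-05) and 2.05 ± 0.44 (SE, limma adjusted p = 0.00424). GDF9, a growth factor of the oocyte, changed by -1.01 in DFAT. In DFOG the receptor ACVR1 rose by 1.98 and the decoy receptor BAMBI by 1.75, whereas ID2 changed by -3.53 ± 0.47 (SE, limma adjusted p = 0.000216) and AMH by -2.67.

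Of 12 measured Wnt genes, 5 rose and 3 fell in DFAT (median change 0.33), and 7 rose and 2 fell in DFOG (median change 0.86). WLS, the carrier that takes Wnt proteins to the cell surface, rose in both, by 1.89 ± 0.20 (SE, limma adjusted p = 2.36e-05) in DFAT and 3.20 ± 0.22 (SE, limma adjusted p = 1.65e-06) in DFOG. TCF7L1, a DNA-binding protein that represses Wnt targets, had called changes of -1.36 in DFAT and 3.37 in DFOG. The co-receptor LRP6 fell in both (-1.04 in DFAT and -1.37 in DFOG). LEF1 rose in DFAT by 1.10, and TCF7L2 fell in DFOG (-2.58).

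Of 18 measured Notch genes, 5 rose and 2 fell in DFAT (median change 0.12), and 3 rose and 3 fell in DFOG (median change -0.06). LFNG, the Fringe enzyme that adds sugars to Notch, rose in DFAT by 2.13 ± 0.36 (SE, limma adjusted p = 0.000793), and HDAC1 by 1.28. ITCH and MYC had called changes of -0.70 and -0.61 there. In DFOG MYC rose by 3.01 and FBXW7, which marks the Notch inner part for breakdown, by 0.97, while the ligand DLL4 and the coactivator MAML3 changed by -1.34 and -1.16.

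Of 13 measured FGF genes, 4 rose and 4 fell in DFAT (median change -0.11), and 3 rose and 2 fell in DFOG (median change 0.42). SDC1, a heparan sulfate proteoglycan that helps FGFs bind, rose in both lineages, by 4.09 ± 0.21 (SE, limma adjusted p = 1.35e-07) in DFAT and 3.75 ± 0.24 (SE, limma adjusted p = 8.99e-07) in DFOG. The feedback phosphatase DUSP6 fell in DFAT, at 7.21 ± 1.06 in DFAT and 9.52 ± 0.29 in MA (mean ± SD, n = 3 each), a change of -2.31 ± 0.55 (SE, limma adjusted p = 0.00685). EGR1, an immediate early gene, fell in both (-2.67 in DFAT and -2.09 in DFOG). PLCG1 rose in DFAT by 1.42, ETV5 rose in DFOG by 2.21, and GAB1 fell in DFOG (-1.05).

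**Figure D5:**
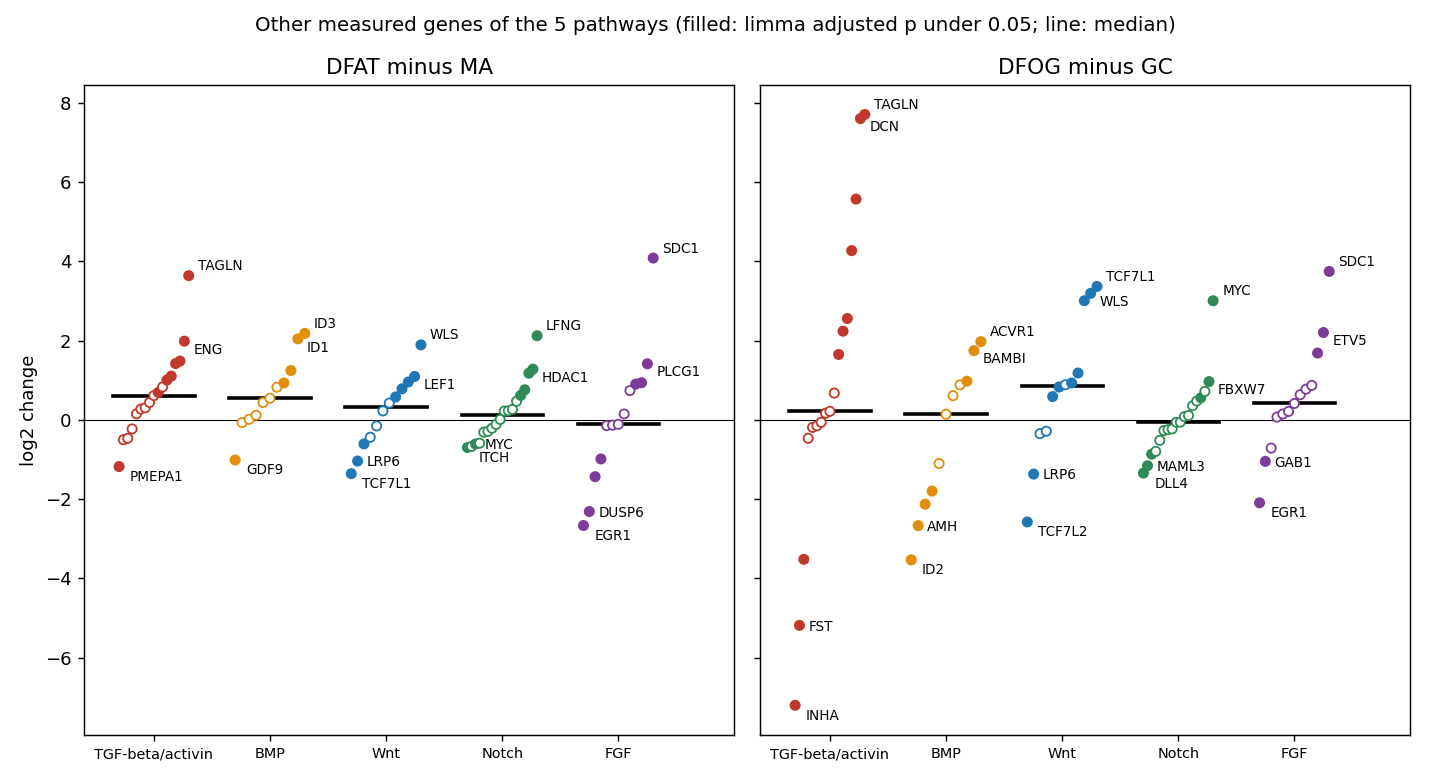
Log2 change of the other measured genes of each pathway in DFAT minus MA (left) and DFOG minus GC (right). Filled points passed the test at an adjusted p under 0.05, and a line marks each pathway's median. TAGLN lies at the top of the TGF-beta and activin column on both sides, and INHA at its bottom in DFOG minus GC.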

How the data were processed

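The authors deposited log2 expression values of 24123 probe sets on 12 arrays, made by RMA per the submitters' processing notes, with RNA amplified from the 3′ end per the labels' protocols. The sources used here give no RMA version or settings. RMA sets all arrays to a common distribution, so a change is relative to the other RNA, and levels of different probe sets are not compared. The table holds no detection calls, and the number of arrays limits the precision. The 124 control probe sets were left out.

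Symbols came from the platform annotation, which can be old: of 23999 tested probe sets, 10069 had 1 symbol, 198 several and 13732 none here. All 36 symbols matched RefSeq gene names. No sequence or coordinates are given, since neither was in the sources used here.

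A model with 1 mean per group was fitted in R 4.3.3 with limma 3.58.1 (two-sided moderated test, Benjamini-Hochberg adjustment over all 23999 probe sets, 7 residual degrees of freedom). The design named 12 arrays, of which DFOG 2 and 3 were averaged under its rule for near-identical arrays. The script was tested on simulated data. Figures were drawn with matplotlib 3.10.9.

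Values in every sample are given for genes past the test in DFAT minus MA or DFOG minus GC with an absolute log2 change of at least 1, or past the interaction test; from the lists of other pathway genes, at most the 2 largest rises and the 2 largest falls per pathway and comparison are named. FGF2 and the extra probe sets were named after their values were seen. The genes and lists were chosen with earlier results of these data known. Lymphocyte markers averaged 4.00 to 4.54, theca and oocyte markers 4.73 to 5.51 and erythrocyte markers 5.64 to 6.05 over all samples. The alternatives tried were other scalings, array weights, the actin covariate, a filter on dim probe sets, the mean over probe sets, fits of only the groups compared, a moderated fit with trend, separate arrays, a replicate block and leaving out each replicate.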

Additional observations from a re-analysis of the deposited data

Results flagged for a closer look

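For 16 genes the change in the fat lineage differed from the change in the granulosa lineage by a test of the difference itself, the limma interaction (DFAT minus MA) minus (DFOG minus GC), at an adjusted p under 0.05. The difference was positive, a higher change in fat cells, for HEY2 (6.81), DKK3 (3.72), BMP1 (3.33), TGFB3 (2.63), FGF12 (1.64), JAG1 (1.63), FZD6 (1.63), FGF7 (1.48) and FZD2 (1.11). It was negative for SFRP1 (-6.28), FGF13 (-4.23), FZD4 (-2.53), BMP4 (-2.49), TGFB1 (-2.21), FGFR2 (-1.45) and TGFB2 (-1.30). All values are log2 differences of changes. When the probe sets of each gene were averaged, 12 of the 16 kept the call, and those of FGF7 (0.86), FZD6 (1.12), JAG1 (0.61) and TGFB2 (-0.35) were lost, while HEY2 was at 4.24. Part of the calls were lost without DFOG 1, a fit with 1 DFOG sample and no spread within DFOG. The MA and GC levels enter this difference too, so it also carries how far the isolated cells stood apart. HEY2 and SFRP1 were the furthest from 0: HEY2 was low in MA alone, whereas SFRP1 was low in GC and in DFAT 1. With 3 or fewer samples in a group, single outlying samples were not tested for.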

How the results depend on the processing

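Called changes of single genes were refitted 1697 times over 22 other settings: 1573 kept their direction and call, 117 kept the direction and lost the call, and 7 changed sign, all under poly-A centring. The changed signs were those of TGFB2 in the interaction (0.12, adjusted p = 0.853) and, in MA minus GC, BMP4 (-0.80), BMP7 (-0.76), FGF1 (-0.87), FGF18 (-0.54), FGFR2 (-0.75) and HES1 (-0.025). Counts moved by over 1.5 times as follows. Under poly-A centring the lower genes were 1 in DFAT minus MA, 10 in DFOG minus GC, 2 in the interaction and 25 in MA minus GC, and the higher genes were 21 in the interaction and 4 in MA minus GC. The counts over all probe sets under that centring are given above. The actin covariate gave 4 lower genes in DFAT minus MA, and the fit of only the groups compared gave 3 higher genes in DFAT minus DFOG. Leaving out each replicate gave 2 to 4 lower genes in DFAT minus MA (4 without DFAT 2), 5 to 9 higher genes in the interaction (5 without DFOG 1) and 3 to 7 higher genes in DFAT minus DFOG (3 without DFOG 1). Fewer samples or groups go into these fits, and the other causes were not tested. The labels number the replicates 1 to 3 in every group. Deviations of same-numbered samples correlated at 0.0999, 0.168 and 0.126 between DFAT and MA and at 0.604, 0.514 and 0.355 between DFOG and GC, where DFOG 2 and 3 are nearly identical, and the numbers were not taken as pairs. With each of the 12 arrays as its own sample, DFOG 2 and 3 included, 11 genes were higher and 2 lower in DFAT minus MA, 9 and 6 in DFOG minus GC, 10 and 8 in the interaction, 15 and 10 in MA minus GC and 7 and 8 in DFAT minus DFOG. With the replicate number as a block as well, on the same 12 arrays, 12 genes were higher and 2 lower in DFAT minus MA, 9 and 6 in DFOG minus GC, 9 and 8 in the interaction, 13 and 10 in MA minus GC and 8 and 8 in DFAT minus DFOG. Between DFAT and MA every sample correlated best with its own number.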
